A study of Mus musculus with 8 samples.

Results

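Growing oocytes store mRNA that is translated later, and a set of RNA-binding proteins keeps it silent, protects it and then releases it. The 10 genes described here encode such proteins or are themselves stored messages: the zygote arrest genes Zar1 and Zar1l, the Y-box gene Ybx2, Lsm14a and Lsm14b, Patl2, Cpeb1, Dazl, the kinase gene Mos and the helicase gene Ddx4. They were chosen by name, as known oocyte RNA-binding and maturation genes, from the 37310 genes of an expression table. The choice was made with earlier results of these data known, so the comparisons below with all genes are descriptions. All 10 were found, and all 10 were among the 12941 genes with at least 1 FPKM (fragments per kilobase of transcript, relative to the library's total) in at least 4 of the 8 libraries. The libraries were made from polyadenylated RNA of mouse 2-cell embryos, grown from fertilized eggs in G1 medium. Triclocarban (TCC), an antibacterial compound of personal care products, was added at 6 µM for 4 libraries, and the 4 control libraries came from medium with an equal volume of the solvent DMSO. The sources used here give neither the strain, nor the hour of collection, nor the number of embryos per library. The libraries may be technical replicates, since nothing states that they came from separate cultures, so p-values measure only the spread between libraries.

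In the mouse, transcription is silent from the fully grown oocyte until the zygote, and the minor and major waves of genome activation follow in the 1-cell and 2-cell embryo. Until then the stored mRNA is controlled at the level of its poly(A) tail and its protein coat. CPEB1 binds a U-rich element near the 3′ end, the cytoplasmic polyadenylation element (CPE), first to hold a message silent and then to lengthen its tail. Most maternal messages are degraded by the 2-cell stage, those of the storage proteins included. Because the libraries were made from polyadenylated RNA, a longer tail and more molecules cannot be told apart in these values.

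The sequences below show which of the 10 messages carry the letters of a CPE, the element through which CPEB1 acts. The end of 1 protein-coding transcript per gene was searched, in the GENCODE M21 transcripts of GRCm38, the assembly that mm10 names. The searched letters were TTTTAT or TTTTAAT in the last 100 bases, and the poly(A) signal AATAAA or ATTAAA in the last 40 bases, on the transcript strand only. A CPE was found in 3 of the 10 ends, against 17.0% of 20744 transcript ends and 19.6% of those of tested genes. Windows of 30 bases in the 3′ UTR hold them, with the CPE, and any poly(A) signal inside the window, in capitals. In Lsm14a, TTTTAAT and AATAAA overlap.
Ybx2, chr11:69941532-69941561, plus strand: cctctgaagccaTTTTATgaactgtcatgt
Lsm14a, chr7:34344669-34344698, minus strand: ccactttgtgtTTTTAATAAAggccatgga
Ddx4, chr13:112598371-112598400, minus strand: acaaatgtttgcTTTTATaatatacagatt

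No CPE letters were found for the 3 genes that rose with triclocarban. The same held for Zar1l, Cpeb1, Lsm14b and Mos, which did not pass the test described below. The last 30 bases of the 3 genes that rose are shown next, with the poly(A) signal in capitals. No match says only that these letters are not in this window. A poly(A) signal was found in 8 of the 10 ends, against 72.7% of all ends. The end annotated for Zar1l leaves only 14 bases of 3′ UTR, so its search covered little. The transcript searched for Zar1 ends at 72577114 with 146 bases of 3′ UTR, while the annotated gene reaches 72576806. The bases beyond that transcript were not searched.
Zar1, chr5:72577114-72577143, minus strand: aagcctgtgAATAAAaggtattgcaaacaa
Dazl, chr17:50279397-50279426, minus strand: gtatacacgAATAAAacctttttttcaaaa
Patl2, chr2:122120108-122120137, minus strand: tatttAATAAAagtctaatctgggatgttg

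The promoters of the same 3 genes, and that of Zar1l beside its relative Zar1, are shown since all 3 rose. RefSeq (GRCm38.p6) gave promoters of 300 bases, from 250 before to 50 after the start, for 9 of the 10 genes (Ybx2 with a pair of starts). None was given for Mos. Capitals mark GCGGGA, a core of E2F sites, and TAATTA or TAATTG, letters bound by the oocyte factor NOBOX, on either strand. They do not overlap here. GCGGGA was found in the promoters of 8 of the 9 genes (all but Dazl), against 6562 of 32851 promoters of this length and 40.3% of the 14281 promoters with at least 10 CpG. The NOBOX letters were found in 1 of the 9 genes, Zar1l, against 12.4% of all promoters. The E-box letters CACGTG were in 2 of the 9 (Cpeb1 and Ddx4), against 7.2%, and the TATA letters TATAAA in 1 of the 9, against 13.6%. A match is a description of letters and not of a bound site.
Zar1, chr5:72581035-72581334, minus strand: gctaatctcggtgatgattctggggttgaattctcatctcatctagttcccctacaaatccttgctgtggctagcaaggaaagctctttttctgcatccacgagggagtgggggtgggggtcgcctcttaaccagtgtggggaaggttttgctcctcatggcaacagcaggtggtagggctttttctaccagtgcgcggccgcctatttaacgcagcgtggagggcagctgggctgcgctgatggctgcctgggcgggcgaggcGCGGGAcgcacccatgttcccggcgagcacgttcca
Zar1l, chr5:150518110-150518409, minus strand: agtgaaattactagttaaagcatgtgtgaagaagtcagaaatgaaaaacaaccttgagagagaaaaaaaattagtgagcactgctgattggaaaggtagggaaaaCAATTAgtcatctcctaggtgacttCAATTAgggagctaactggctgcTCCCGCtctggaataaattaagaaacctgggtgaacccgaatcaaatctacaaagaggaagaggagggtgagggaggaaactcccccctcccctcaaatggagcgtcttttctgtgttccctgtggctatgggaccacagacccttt
Patl2, chr2:122186140-122186439, minus strand: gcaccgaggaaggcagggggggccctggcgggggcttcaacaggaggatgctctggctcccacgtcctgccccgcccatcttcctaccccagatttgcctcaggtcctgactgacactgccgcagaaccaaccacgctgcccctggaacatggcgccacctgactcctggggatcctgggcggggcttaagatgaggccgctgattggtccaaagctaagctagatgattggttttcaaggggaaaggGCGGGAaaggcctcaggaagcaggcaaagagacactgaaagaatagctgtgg
Dazl, chr17:50293571-50293870, minus strand: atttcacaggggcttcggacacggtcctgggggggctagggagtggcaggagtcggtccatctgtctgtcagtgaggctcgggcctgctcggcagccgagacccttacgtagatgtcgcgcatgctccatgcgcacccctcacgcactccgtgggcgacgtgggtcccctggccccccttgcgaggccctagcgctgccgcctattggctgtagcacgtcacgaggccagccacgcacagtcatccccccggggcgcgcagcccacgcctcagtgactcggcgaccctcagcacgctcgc

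With triclocarban, 3 of the 10 genes had a higher FPKM and the other 7 did not pass the test. Zar1, Dazl and Patl2 were the 3, at 3.13, 3.36 and 4.0 times the mean of the controls. The test was limma on log2(FPKM + 1), with Benjamini-Hochberg adjustment over all 12941 genes and a threshold of 0.05. By it, 11.3% of all genes tested were higher and 30.8% lower. No member was lower by it. None was lower at an unadjusted p under 0.05 either (0 by limma), and all 10 estimates were positive. The shares of all genes by these last measures were not counted. For 3 of the 10, all 4 treated libraries lay above all 4 controls, against 10.2% of all genes tested. For 0 of the 10 they lay below, against 30% of all genes tested. The median log2 change of the 10 genes was 0.59, where that of all genes tested was -0.19. Because FPKM is relative to the total of a library, fewer cells of a type and less RNA per cell cannot be told apart.

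Facts of the whole table bear on these values. The control libraries lay in pairs along the component that held 69.1% of the variance, at 27.8 and 36.5 for controls 1 and 2, 101.7 and 97.8 for controls 3 and 4, and between -69.6 and -62.7 for the treated libraries. Controls 1 and 2 both lay above controls 3 and 4 for 7 of the 10 genes and below them for 2. The shares of all genes tested that split in these ways were not counted, so the split is not particular to these genes as far as is known. Triclocarban library 2 stood apart on the next component, at -63.3. Both oocyte and 2-cell markers were present: the summed FPKM of 21 oocyte genes was 11539 to 16362 with triclocarban and 5476 to 7509 in controls, and that of 14 genes of the 2-cell stage was 500.2 to 1352 with triclocarban and 878 to 1156 in controls. Of 15 cumulus and granulosa cell markers, 10 stayed under 1 FPKM everywhere, Lhcgr, Inha and Amh were at 0, and the sum was 10.9 to 20.4 with triclocarban and 25.02 to 33.4 in controls. Of 11 sperm markers, 7 stayed under 1 FPKM everywhere, Smcp among them at 0. The sum of all 11 was 42.1 to 49.3 with triclocarban and 26.4 to 61.6 in controls, most of it Odf2. The protamine gene Prm2, 1 of 2 sperm markers tested, had 6.87, 7.50, 8.90 and 7.65 FPKM with triclocarban, against 5.01, 1.40, 1.43 and 1.12 in controls, with no overlap, and rose by 1.57 log2 units (limma adjusted p = 0.00307), while Odf2 was at -0.04 (limma adjusted p = 0.921). Of the 4 cumulus markers tested, Cyp19a1 and Fshr were higher and Amhr2 and Tnfaip6 lower. Of 10 blood and stroma markers, 7 stayed under 1 FPKM everywhere, Col3a1 and Hbb-bs among them at 0. The sum of all 10 was 15.8 to 34.3 with triclocarban and 45.8 to 81.0 in controls. Hba-a1 was the highest of them by its total over the libraries. The part of these cells in the results was not tested.

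Zar1 encodes a zinc-finger protein that binds stored maternal mRNA and is needed for development past the zygote (ENSMUSG00000063935.2, chromosome 5, 72576806 to 72581254, minus strand of GRCm38). In triclocarban libraries 1 to 4 it had 61.2, 51.9, 50.3 and 46.8 FPKM, against 28.5, 30.04, 4.33 and 4.32 in controls 1 to 4. The groups did not overlap, and the controls split into a higher pair and a lower pair. The means were 52.5 ± 6.17 FPKM with triclocarban and 16.8 ± 14.4 FPKM in controls (SD, n = 4 each). Zar1 rose by 2.07 ± 0.57 (standard error) on the log2 scale (limma adjusted p = 0.0123). Leaving out controls 1 and 2 gave 3.32, leaving out controls 3 and 4 gave 0.82, and both passed the threshold.

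Zar1l, the close relative of Zar1 that acts with it in mouse oocytes (chromosome 5, 150507055 to 150518164, minus strand), had 62.9, 54.2, 39.8 and 44.9 FPKM with triclocarban, against 24.8, 25.2, 36.8 and 47.1 in controls. The groups overlapped through control 4, and here controls 3 and 4 were the higher pair. The log2 change of 0.61 (95% interval -0.01 to 1.23) missed the threshold (limma adjusted p = 0.107). It passed after quantile normalization (0.87, limma adjusted p = 0.0296) and without controls 3 and 4 (0.96, limma adjusted p = 0.0235).

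A ratio of 2 genes within a library is free of the scaling of that library. Zar1 over Zar1l was 0.973, 0.958, 1.26 and 1.04 in triclocarban libraries 1 to 4, against 1.15, 1.19, 0.118 and 0.0918 in controls 1 to 4. Near-equal FPKM of both genes was thus seen in all treated libraries and in controls 1 and 2. In controls 3 and 4 the FPKM of Zar1 was far below that of Zar1l. Lsm14a over Lsm14b was 7.59, 8.85, 7.28 and 9.34 with triclocarban, against 7.22, 8.85, 12.4 and 9.0 in controls. Both ratios overlapped between the groups, and neither was tested.

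**Figure D1:**
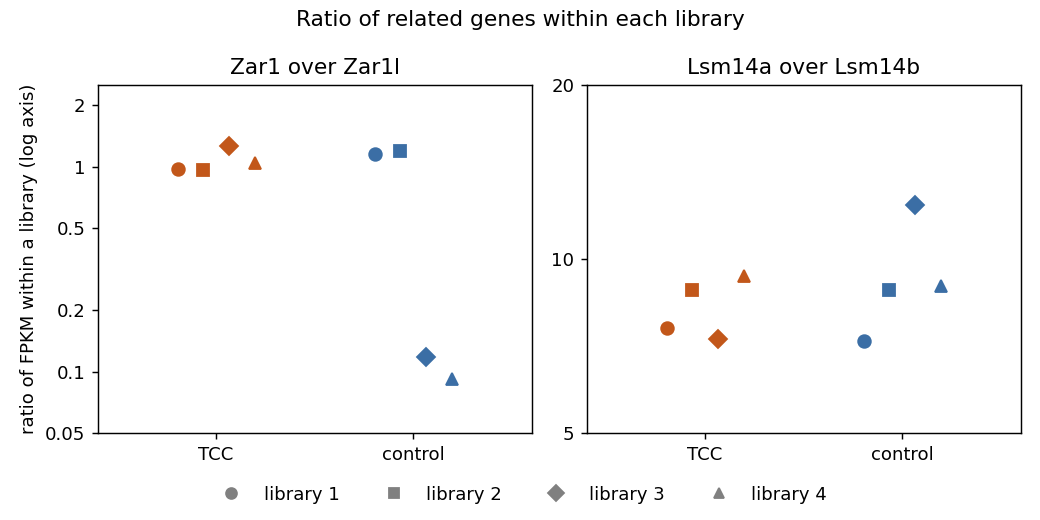
FPKM of Zar1 over Zar1l (left) and of Lsm14a over Lsm14b (right) within each library, on log axes, with triclocarban libraries left of controls and 1 marker shape per library number. The Zar1 ratio lies between 0.958 and 1.26 in all treated libraries and at 0.118 and 0.0918 in controls 3 and 4, and the Lsm14 ratio stays between 7.22 and 12.4.

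Ybx2 encodes the germ-cell cold-shock protein MSY2, an abundant coat protein of stored oocyte mRNA (chromosome 11, 69935796 to 69941605, plus strand). It had 30.2, 87.8, 25.5 and 44.5 FPKM with triclocarban, against 45.3, 48.9, 18.7 and 19.5 in controls. The groups overlapped over most of their range, with triclocarban library 2 the highest of all. The change of 0.46 log2 units (95% interval -0.50 to 1.42) missed the threshold (limma adjusted p = 0.43). It was 1.09 when controls 1 and 2 were left out (limma adjusted p = 0.0752), -0.17 when controls 3 and 4 were (limma adjusted p = 0.817), and 0.11 without triclocarban library 2.

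Lsm14a and Lsm14b encode LSM-domain proteins of repressed mRNPs, found in the P-bodies of somatic cells and in the storage particles of oocytes. Lsm14a (chromosome 7, 34344646 to 34393315, minus strand) had 156, 450.4, 205 and 249 FPKM with triclocarban, against 169, 238, 162 and 169 in controls. Lsm14b (chromosome 2, 180024987 to 180035465, plus strand) had 20.6, 50.9, 28.2 and 26.6 FPKM with triclocarban, against 23.4, 26.9, 13.1 and 18.8 in controls. For both genes triclocarban library 2 was the highest of all 8 and the groups overlapped. The log2 changes were 0.42 (95% interval -0.30 to 1.15) for Lsm14a and 0.56 (-0.15 to 1.28) for Lsm14b (limma adjusted p = 0.326 and 0.19). Without triclocarban library 2 they were 0.13 and 0.31. An antisense gene, Gm12764, shares 344 exon bases with Lsm14a. It stayed under 1.3 FPKM in all libraries, and 2310043P16Rik, on the same strand as it, shares 110 and was not analysed here. Whether the authors counted by strand is not stated.

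Patl2 encodes an oocyte protein of the PAT1 family, which represses translation in frog oocytes, and mutations of it in women halt oocyte maturation (chromosome 2, 122120108 to 122186189, minus strand). It had 8.14, 4.91, 5.05 and 4.73 FPKM with triclocarban, against 1.51, 2.34, 1.14 and 0.712 in controls. The groups did not overlap, and Patl2 was the lowest of the 10 genes in every library. The means were 5.71 ± 1.63 FPKM with triclocarban and 1.43 ± 0.691 FPKM in controls (SD, n = 4 each). Patl2 rose by 1.48 ± 0.28 (standard error) on the log2 scale (limma adjusted p = 0.00144). On this scale a pseudocount of 1 weighs on so low a gene: the change was 2.0 with a pseudocount of 0.1 and 0.73 with one of 5, past the threshold with both.

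Cpeb1, the gene of the CPE-binding protein that controls tail length in maturing oocytes (chromosome 7, 81347026 to 81455465, minus strand), had 32.7, 30.5, 21.7 and 23.5 FPKM with triclocarban, against 27.4, 26.4, 11.01 and 13.8 in controls. The groups overlapped through controls 1 and 2. The log2 change was 0.52 (95% interval -0.20 to 1.24, limma adjusted p = 0.225). It was 1.06 without controls 1 and 2, past the threshold (limma adjusted p = 0.01), and -0.01 without controls 3 and 4 (limma adjusted p = 0.978).

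Dazl encodes a germ-cell protein that binds 3′ UTRs and promotes translation of its targets during oocyte maturation (ENSMUSG00000010592.7, chromosome 17, 50279395 to 50293636, minus strand). Its FPKM was 188, 182, 236 and 196 in triclocarban libraries 1 to 4, against 84.6, 92.5, 28.2 and 33.4 in controls 1 to 4. The groups did not overlap, and the treated libraries lay close together. The means were 200.5 ± 24.4 FPKM with triclocarban and 59.7 ± 33.6 FPKM in controls (SD, n = 4 each). Dazl rose by 1.91 ± 0.38 (standard error) on the log2 scale (limma adjusted p = 0.00216). Leaving out controls 1 and 2 gave a rise of 2.66 and leaving out controls 3 and 4 one of 1.16, past the threshold in both.

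Mos encodes the kinase that starts the MAPK cascade of meiosis and holds the egg in metaphase II, and its own mRNA is a classic target of cytoplasmic polyadenylation (chromosome 4, 3870657 to 3872105, minus strand). It had 16.3, 7.89, 8.42 and 7.77 FPKM with triclocarban, against 18.2, 12.9, 2.37 and 4.57 in controls. The treated libraries lay between the higher and the lower pair of controls, apart from library 1. The log2 change was 0.34 (95% interval -0.76 to 1.44, limma adjusted p = 0.622). Its sign depended on the controls: it was 1.29 without controls 1 and 2 (limma adjusted p = 0.0172), -0.62 without controls 3 and 4 (limma adjusted p = 0.221) and -0.10 without control 3 alone.

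Ddx4 encodes the germ-line RNA helicase known as VASA in flies and MVH in mice (chromosome 13, 112598333 to 112652475, minus strand). It had 35.6, 17.8, 212 and 172 FPKM with triclocarban, against 29.6, 19.99, 59.3 and 48.9 in controls. Libraries 3 and 4 were higher than libraries 1 and 2 in both groups, and the 2 highest values of all were those of triclocarban libraries 3 and 4. The log2 change was 0.93 (95% interval -0.60 to 2.46, limma adjusted p = 0.311), and its standard error of 0.70 was the largest of the 10. It was 1.57 without triclocarban library 2, 0.40 without library 3 and 0.50 without library 4. Leaving out controls 1 and 2 gave 0.37, and leaving out controls 3 and 4 gave 1.49.

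**Figure D2:**
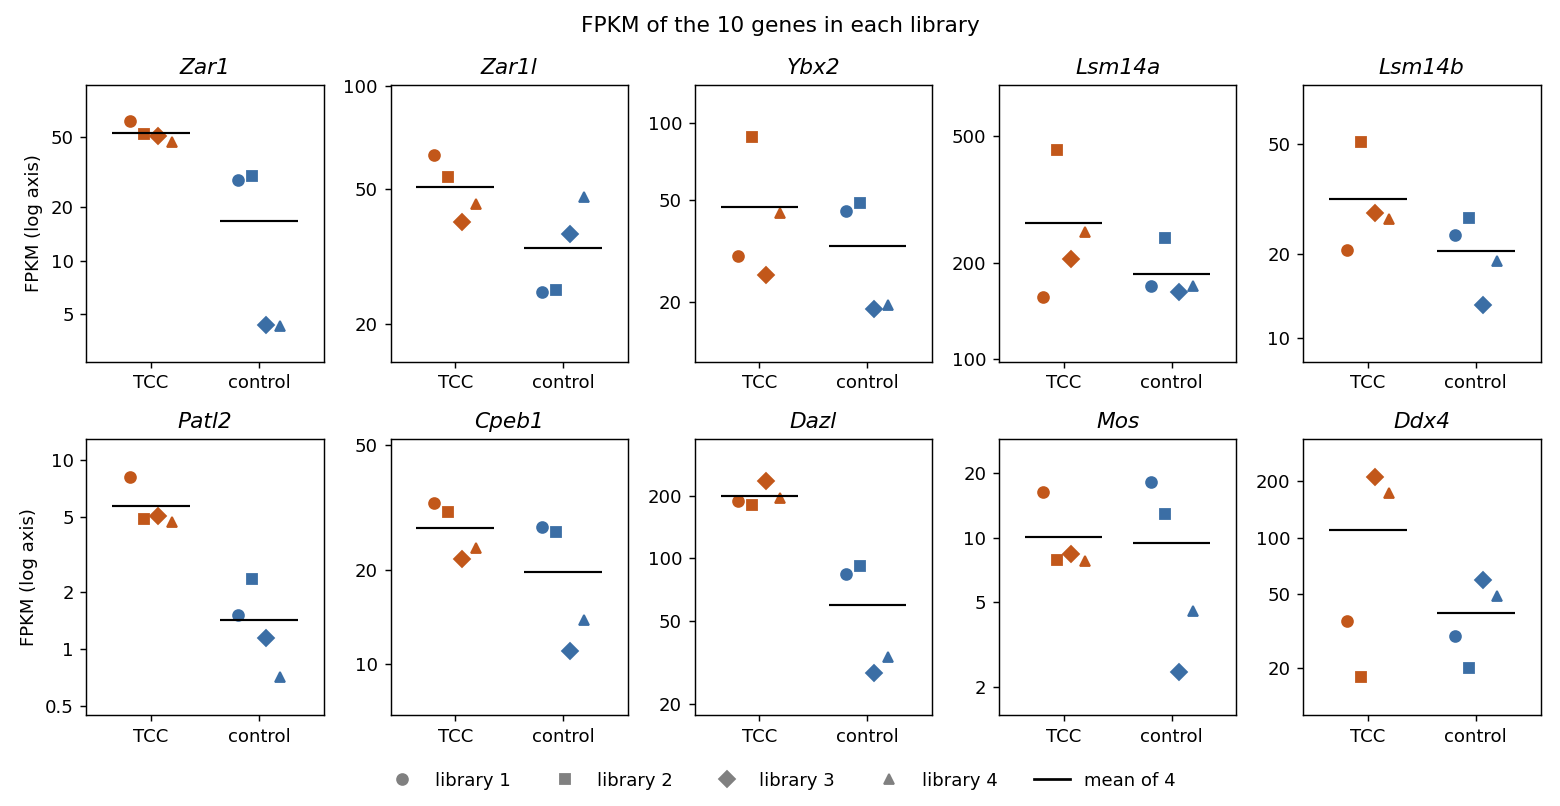
FPKM (log axes) of the 10 genes in each library, with triclocarban libraries left of controls, 1 marker shape per library number and a line at the mean of 4. For Zar1, Dazl and Patl2 all treated libraries lie above all controls, and for Zar1 controls 3 and 4, at 4.33 and 4.32, lie far below controls 1 and 2, at 28.5 and 30.04.

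FPKM is per length, so levels can be set side by side as far as the lengths used are right. The annotation release behind those lengths is not stated in the sources used here, so the order between genes is a description. By mean FPKM the order with triclocarban was Lsm14a (265), Dazl (200.5), Ddx4 (109.5), Zar1 (52.5), Zar1l (50.5), Ybx2 (47.0), Lsm14b (31.6), Cpeb1 (27.1), Mos (10.1) and Patl2 (5.71). The ranges of neighbours overlapped at every step except between Cpeb1 and Mos. In controls it was Lsm14a (185), Dazl (59.7), Ddx4 (39.4), Zar1l (33.5), Ybx2 (33.1), Lsm14b (20.6), Cpeb1 (19.7), Zar1 (16.8), Mos (9.49) and Patl2 (1.43), and the ranges overlapped except between Lsm14a and Dazl and between Mos and Patl2. Within single libraries, Zar1 had rank 4, 5, 4 and 4 of the 10 in triclocarban libraries 1 to 4, against rank 5, 4, 8 and 9 in controls 1 to 4, so that controls 1 and 2 matched the treated libraries and its lower place by the control mean came from controls 3 and 4. Among the genes tested, Dazl was at percentile 96.6 to 97.4 with triclocarban and 76.7 to 93.0 in controls, and Zar1 at 87.1 to 89.3 and 35.7 to 77.9. Lsm14a stayed at percentile 95.8 or higher in all 8 libraries. The FPKM of all 10 together was 612, 938, 833 and 816 with triclocarban, against 452, 524, 337 and 361 in controls.

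**Figure D3:**
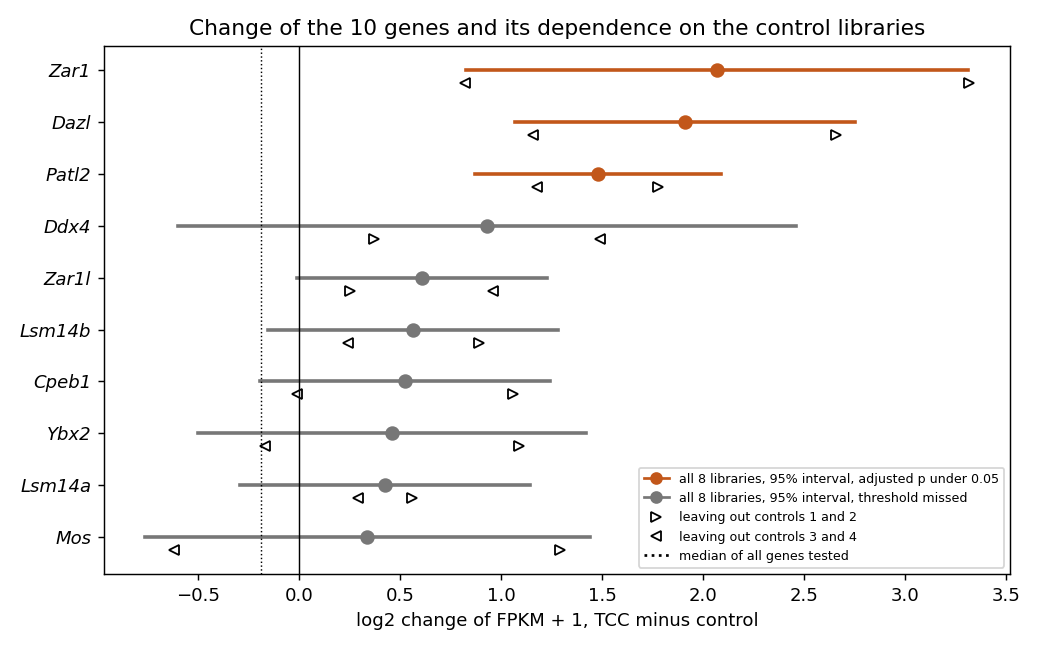
Log2 change of FPKM + 1, triclocarban minus control, of the 10 genes: dots and bars are the estimate and 95% interval from all 8 libraries, and triangles the estimates without controls 1 and 2 or without controls 3 and 4. The estimates of Zar1, Dazl and Patl2 (2.07, 1.91 and 1.48 from all 8 libraries) stay above 0 in all of them. So do those of Zar1l, Lsm14a, Lsm14b and Ddx4, which missed the threshold with all 8 libraries. Mos moves between -0.62 and 1.29.

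The 10 genes did not follow a single profile over the libraries. As a description over 8 libraries that share their groups and pairs, Pearson's r of log2(FPKM + 1) was 0.97 between Zar1 and Dazl, 0.91 between Zar1 and Cpeb1, 0.90 between Lsm14a and Lsm14b, and 0.17 between Zar1 and Zar1l. For Ddx4 it ran from -0.47 (Ybx2) to 0.23 (Dazl). The named genes with the most similar profile were Ccdc38, Atp6v1g1 and Add3 for Zar1 (r of 0.996, 0.993 and 0.992). For Dazl they were Bcl2l10, Tex26 and Tmem60 (0.995, 0.995 and 0.994), and for Patl2 they were Nol10, Phf20 and Psmd2 (0.992, 0.989 and 0.984). Cpeb1 was nearest to C87977, Ippk and Wdr41 (0.99, 0.989 and 0.987), and Mos to Pcgf3, Cyth3 and Angptl2 (0.987, 0.981 and 0.98). Lsm14a was nearest to Sin3a, Rhpn2 and Ranbp9 (0.99, 0.989 and 0.984), Lsm14b to Mbd2, Spg20 and Tigd2 (0.978, 0.975 and 0.97), and Ybx2 to Hipk2, Ppp1r9b and Ghdc (0.982, 0.98 and 0.977). Zar1l was nearest to Sbds, Med17 and Fxr1 (0.913, 0.911 and 0.906), and Ddx4 to Cd160, Cldn34b2 and Leprot (0.992, 0.988 and 0.97). Cd160, for example, had 7.13, 3.23, 83.6 and 56.2 FPKM with triclocarban, against 4.82, 4.62, 13.5 and 10.3 in controls. It too was higher in libraries 3 and 4 than in 1 and 2. It was picked for its likeness to Ddx4 over these same libraries, so it is no separate support for that pattern.

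The counts below are for genes of proteins with which these regulators work, and are to be read against the 11.3% higher, 30.8% lower and median of -0.19 of all genes tested. Of 25 tested genes for cytoplasmic polyadenylation and repression, 5 were higher and 7 lower (28.0%, near the share of all genes), and 13 missed the threshold, with a median log2 change of 0.13. The embryonic poly(A)-binding protein gene Pabpc1l had 66.7, 131, 61.6 and 67.3 FPKM with triclocarban, against 27.2, 34.6, 4.82 and 3.15 in controls, a rise of 2.66 log2 units (limma adjusted p = 0.0058). Its somatic counterpart Pabpc1 had 6.27, 15.0, 12.2 and 10.2 FPKM with triclocarban, against 43.2, 61.0, 117 and 109.9 in controls, a change of -2.76 (limma adjusted p = 0.000206). The groups did not overlap for either gene, which moved in opposite directions. The rise of Pabpc1l was 4.0 when controls 1 and 2 were left out and 1.31 when controls 3 and 4 were. Pabpn1l, the oocyte relative of the nuclear poly(A)-binding protein, was higher at 2.08 and the poly(A) polymerase gene Papolg at 1.10, and both missed the threshold without controls 3 and 4 (limma adjusted p = 0.085 and 0.0547).

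The main nuclear poly(A) polymerase gene Papola was lower at -2.09, and so was Cpsf1, a subunit of the cleavage and polyadenylation factor, at -1.26. The oocyte cap-binding gene Eif4e1b, whose protein sits with CPEB1 in frog oocytes, was higher at 1.68 (limma adjusted p = 0.0202), and missed the threshold without controls 3 and 4 (0.62, limma adjusted p = 0.148), with no filter on low values, and without triclocarban library 1, control 3 or control 4 alone. Its partner Eif4enif1, the 4E-transporter, had 109.9, 243, 129.6 and 159 FPKM with triclocarban, against 114, 137, 83.4 and 86.8 in controls (log2 change 0.57, limma adjusted p = 0.154). Tent2, the cytoplasmic poly(A) polymerase that lengthens tails, had a log2 change of 0.13 (limma adjusted p = 0.709). Of the relatives of Cpeb1, Cpeb2 was lower at -1.70 (limma adjusted p = 0.0013), and Cpeb4 was at -0.24 (limma adjusted p = 0.433). The 5 higher genes of this list became 8 with quantile normalization, 7 without controls 1 and 2, 1 without controls 3 and 4, and 3 without triclocarban library 1 or control 4.

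Of 35 tested genes for proteins of mRNP granules and storage, 2 were higher (5.7%) and 10 lower (28.6%, again near the share of all genes), with a median of -0.11. Median-of-ratios scaling gave 7 higher and 8 lower genes, and quantile normalization gave 6 higher and 7 lower ones. Ddx6, the helicase partner of LSM14 and PATL proteins, had 3.41, 3.47, 2.64 and 3.46 FPKM with triclocarban, against 6.28, 8.55, 5.47 and 6.62 in controls. Its log2 change of -0.86 (limma adjusted p = 0.0134) missed the threshold with quantile normalization (-0.45, limma adjusted p = 0.132). Ybx1, the Y-box relative of Ybx2 that somatic cells use, was lower at -0.88 (limma adjusted p = 0.0278). It missed the threshold in 7 other settings: without controls 1 and 2 (-0.47, limma adjusted p = 0.104), without triclocarban library 3 or 4 or control 1 or 2 alone, with median-of-ratios scaling and with no filter on low values. The RNA-binding protein gene Syncrip was at -3.30, the stress granule gene G3bp1 at -2.20 and Igf2bp1, which shields mRNA from decay, at -1.81, all lower with no overlap between the groups. Stau2, a double-stranded RNA-binding protein, and Caprin2 were the higher ones, at 1.39 and 0.74. Both missed the threshold without controls 3 and 4 (limma adjusted p = 0.0662 and 0.0882), and Caprin2 also without triclocarban library 1 or 4 or control 1, 3 or 4. The count of higher genes was 9 without controls 1 and 2, 1 without controls 3 and 4, 1 without triclocarban library 1 or 4 or control 3 or 4, and 4 without triclocarban library 2 or control 1.

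Germ-cell RNA regulators and piRNA genes, the setting in which Ddx4 acts, were higher in 6 (30%) and lower in 5 (25%) of 20 tested, with a median of 0.21. Tdrd12 and Asz1, both of the piRNA machinery, rose by 2.71 and 2.43, and Nanos2, a translational repressor of male germ cells, by 1.46. Nanos3, Piwil2 and the helicase gene Mov10l1 were lower at -1.83, -1.59 and -2.16. Piwil2 had 0.87, 0.863, 0.772 and 0.745 FPKM with triclocarban, against 2.67, 3.28, 6.56 and 6.44 in controls. The count of higher genes was 4 without controls 3 and 4, where the changes of Nanos2 and Mov10l1 were 0.88 and -1.33. The 5 lower genes were all below the filter of at least 5 FPKM in 4 libraries and could not be tested under it.

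On the pathway from MOS to MAPK and meiotic arrest, 6 of 21 tested genes were higher (28.6%) and 5 lower (23.8%), with a median of 0.23. Map2k1, the kinase that MOS phosphorylates, had 189, 281, 192 and 193 FPKM with triclocarban, against 127, 138, 57.6 and 70.5 in controls (log2 change 1.19, limma adjusted p = 0.0118). Its relative Map2k2 was lower, at -1.75. Fbxo43, the inhibitor of the anaphase-promoting complex that holds the metaphase II arrest, had 56.2, 62.5, 52.5 and 54.8 FPKM with triclocarban, against 25.7, 30.2, 18.5 and 22.3 in controls (log2 change 1.21, limma adjusted p = 0.00197). Ccnb2 was higher at 2.02, while Cdk1, the kinase that B cyclins activate, was lower at -2.34 and Cdc25c at -2.19. Ccnb1, itself a CPE-controlled message, was at 0.54 (limma adjusted p = 0.251), and passed the threshold without triclocarban library 2 (0.87, limma adjusted p = 0.0244). Without controls 3 and 4, 2 genes were higher, and Map2k1 and Ccnb2 were not among them (limma adjusted p = 0.0848 and 0.0512).

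Of 24 maternal mRNAs listed for recruitment to translation in maturing oocytes, 6 were higher (25%) and 2 lower (8.3%), with a median of 0.51. Recruitment of each listed message was not checked. Slbp, the histone mRNA-binding protein gene, had 738, 506, 737 and 728 FPKM with triclocarban, against 226, 261, 229 and 210.5 in controls (log2 change 1.53, limma adjusted p = 0.000492). The spindle gene Aspm rose by 1.40. Btg4, the adaptor that brings the deadenylase to maternal mRNA, was at 1.52 (limma adjusted p = 0.0109), and missed the threshold with no filter on low values (limma adjusted p = 0.0589) and without controls 3 and 4 (0.81, limma adjusted p = 0.0944). Cdc20 was lower at -1.48 and Ewsr1 at -0.95. Cdc20 missed the threshold without controls 3 and 4 (limma adjusted p = 0.07). Ewsr1 missed it with quantile normalization (-0.55, limma adjusted p = 0.117) and without triclocarban library 3 or 4 (limma adjusted p = 0.0517 and 0.051). Plat and Cnot7, which are tail-controlled messages, were at 0.98 and 0.71 (limma adjusted p = 0.134 and 0.135), and both passed without controls 1 and 2 (1.95 and 1.33) and without control 1 alone, Cnot7 also with median-of-ratios scaling. The 6 higher genes became 14 without controls 1 and 2, 2 without controls 3 and 4, 10 without control 1 or with median-of-ratios scaling, and 3 with no filter. For comparison, 12 of 20 tested oocyte identity genes were higher and 1 lower, with Oosp1, Gdf9 and Zp2 in both lists. The median of the oocyte identity genes was 0.98. The number higher was 7 without controls 3 and 4 and 7 with no filter on low values. Of 14 genes of the 2-cell stage 5 were higher and 3 lower, with a median of 0.08. The 5 became 2 without controls 3 and 4, and 3 with no filter or without triclocarban library 1, 3 or 4 or control 3 alone.

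**Figure D4:**
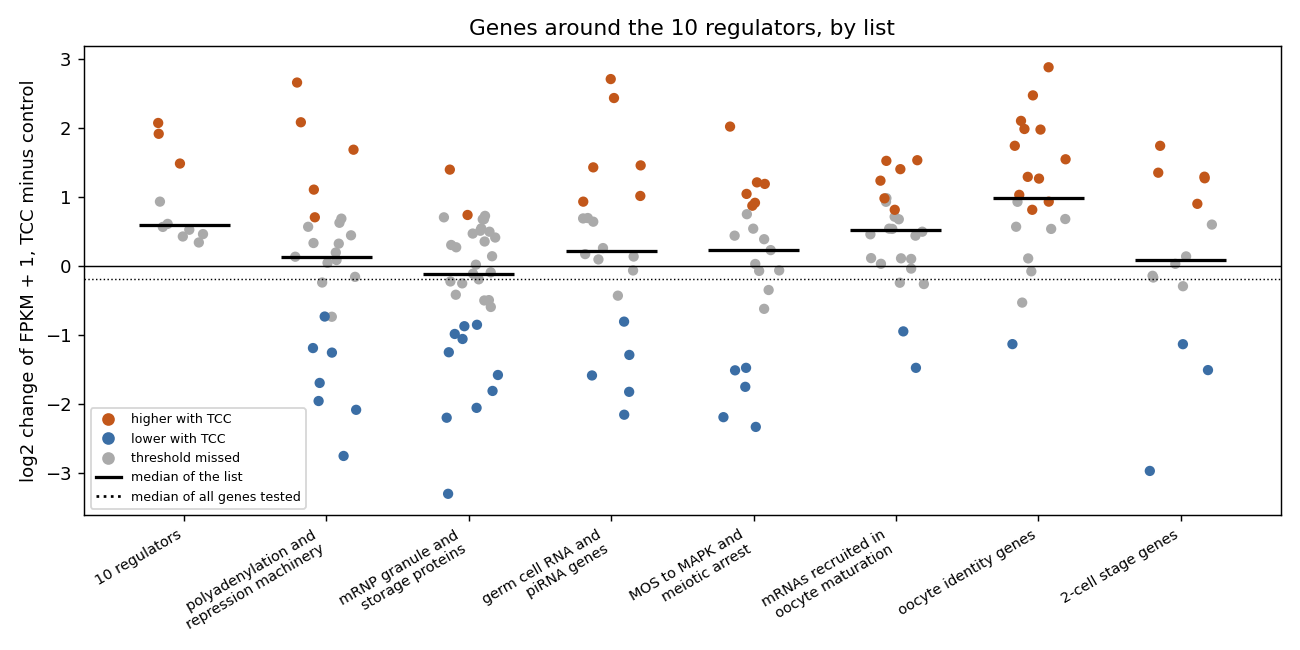
Log2 change of FPKM + 1, triclocarban minus control, of each tested gene in 8 lists, with the list median as a bar and the median of all genes tested, -0.19, as a dotted line; colour marks genes past the threshold in either direction. The list of mRNP granule proteins spans -3.30 to 1.39, and the 10 regulators hold no gene below 0.

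The letters through which CPEB1 acts were also read across the genes tested. Of 1668 tested genes whose end holds both a CPE and a poly(A) signal, 11.2% were higher and 26.1% lower, with a median log2 change of -0.12. Of 6496 genes with a poly(A) signal and no CPE, 11.3% were higher and 30.9% lower, with a median of -0.19. The shares of higher genes were thus nearly the same in both classes. The ends also differed in base composition, with a median of 68.7% A and T in the class with a CPE and 61.3% in the class without. The part of composition in the shares of lower genes was not tested.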

How the data were processed

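Polyadenylated RNA of 8 libraries was sequenced as paired reads, per the labels' protocols, which describe both a kit for microgram amounts of total RNA and a cDNA preamplification. The authors deposited FPKM values of 37310 genes. The submitters' processing notes name STAR, StringTie, featureCounts, DESeq2 1.30.1 and mm10, without roles. Annotation release, strand setting and treatment of shared reads are not stated in the sources used here. Whole fragments could not be recovered: 5.3 to 7.3% of low values lay within 0.02 of a whole number, where chance gives 4%. Depth is therefore unknown, and no count test was run. Sums of FPKM ran from 477882 to 605986.

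Identifiers were matched to GENCODE M21 (87.4%). The test was limma 3.58.1 (trend) in R 4.3.3 on log2(FPKM + 1), with treatment as the only term, after a filter of 1 FPKM in 4 libraries. It was tested on simulated data. The pathway lists hold polyadenylation, granule, germ-cell, MOS, recruited-mRNA, oocyte and 2-cell genes, and markers of cumulus, sperm and stroma cells. Some genes are in more than 1 list. The text names all members, up to 3 genes per direction and list with the smallest adjusted p, the 3 nearest profiles per member, and Ddx6, Eif4enif1, Eif4e1b, Pabpc1l, Tent2, Cpeb2, Cpeb4, Ybx1, Ccnb1, Plat, Btg4 and Cnot7. For the oocyte, 2-cell and marker lists, counts or sums are given. Members and lists were chosen with earlier results of these data known. Sequences and tables were read with Python 3.11.15 and pandas 2.3.3.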

Additional observations from a re-analysis of the deposited data

Results flagged for a closer look

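A single library lay far from the other 3 of its group, by the gap to its neighbour against the range of the group, in 11 of 128 groups examined, where chance gives about 1 in 20. Among the members these were Patl2 in triclocarban library 1 (8.14 FPKM), Mos in the same library (16.3 FPKM) and Lsm14a in control 2 (238 FPKM). Among the other named genes they were, in triclocarban library 2, Pabpc1l (131 FPKM), Map2k1 (281 FPKM) and Slbp (506 FPKM), in triclocarban library 1, Pabpn1l (64.1 FPKM), and in triclocarban library 3, Ddx6 (2.64 FPKM). In control 1 they were Prm2 (5.01 FPKM), Tent2 (88.1 FPKM) and Cpeb4 (22.8 FPKM). The cause of these values was not tested.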

How the results depend on the processing

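The 3 higher members kept their direction and stayed past the threshold in all 19 alternatives that tested them, except that Patl2 fell under the filter of 5 FPKM and was tested in 18. Their log2 changes ranged from 0.82 to 3.32 for Zar1, 1.16 to 2.66 for Dazl and 0.73 to 2.0 for Patl2. Their highest limma adjusted p was 0.0494 for Zar1, with no filter on low values, 0.0111 for Dazl and 0.0158 for Patl2. Members called higher numbered 5 without controls 1 and 2, and 4 without controls 3 and 4. They numbered 4 with quantile normalization and 2 with the filter of 5 FPKM. Over all genes, 1466 were higher and 3981 lower. The number higher was 2262 with median-of-ratios scaling (3420 lower, so 39.8% of calls were higher, against 26.9%), 2915 with quantile normalization (2847 lower, 50.6%), 2838 without controls 1 and 2, 695 without controls 3 and 4, and 953 to 1860 with 1 library left out. The number lower was 2492 with the filter of 5 FPKM. The median change of all genes was -0.19, and -0.03 and 0.14 with those scalings. Directions that turned, none of them past the threshold, were those of Ybx2 (-0.17), Cpeb1 (-0.01), Mos (-0.62) and Tent2 (-0.09) without controls 3 and 4, Mos with 1 library left out (-0.10 to 0.73), and Cpeb4 with quantile normalization (0.15). The labels give same-numbered libraries no more than a common number. Their deviations correlated at 0.338, 0.053, 0.095 and 0.104, and 3 of 4 correlated best with their own number. With the replicate number as a block, 1544 genes were higher and 4061 lower, and 3 members higher. The cause of these shifts was not tested. Low genes such as Patl2 are limited by a depth that is not known.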

Other observations

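Dicer1, which makes the small interfering RNAs of mouse oocytes, was chosen after its values were seen. It had 154, 167, 17.1 and 168 FPKM in triclocarban libraries 1 to 4, against 36.4, 80.0, 53.0 and 71.7 FPKM in controls 1 to 4. Triclocarban library 3 alone lay below all controls, while the other 3 lay above them. The gene did not pass the threshold over all 8 libraries (log2 change 0.69, limma adjusted p = 0.417). Amhr2, of the list of cumulus and granulosa cell markers, had 1.41, 0.187, 2.37 and 0.935 FPKM with triclocarban, against 22.5, 15.4, 26.7 and 20.9 FPKM in controls. The aromatase gene Cyp19a1, of the same list, had 11.9, 6.94, 6.55 and 7.94 FPKM with triclocarban, against 4.47, 2.39, 1.28 and 1.23 FPKM in controls. These 2 genes moved in opposite directions. Of the 15 genes of that list, 10 stayed under 1 FPKM everywhere, and the presence of such cells was not tested.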
